A study of Mus musculus with 16 samples.

Results

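The comparison described here set 8 ventricle libraries from mice fed the UW formula or the modified NIA formula (mNIA), which share their sucrose and fat content, against 4 libraries from mice fed the unmodified NIA formula. Members were taken by sample title: UW replicates 1 to 4 and mNIA replicates 1 to 4, together 8 of the 16 libraries of the series, with NIA replicates 1 to 4 opposite them. All animals were male C57BL/6 mice, randomly assigned to a diet at 6 weeks of age and kept on it for 6 months. The UW diet is a primate formula, mNIA is the NIA formula altered so that sucrose and fat equal those of UW, and NIA is a second primate formula. The remaining 4 libraries came from mice on standard rodent chow and lie on neither side of the comparison. They entered the choice of genes tested, the scaling, the weights given to libraries and the estimate of the spread. They also entered the centring used with transcript length and a description of where chow lay. Each library was made from the lower ventricles of 1 animal, with poly-A selection and a strand-specific kit. The comparison asks which genes part from NIA in the same direction on both formulas that hold the same sucrose and fat.

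The diet of each group rests on the titles and the diet labels, and a second set of labels does not spell the same diets. The libraries titled UW carry the code NC, those titled mNIA the code UC, those titled NIA the code MNC and those titled chow the code CC. Read by their letters, NC could stand for NIA, MNC for modified NIA and UC for UW, and nothing in the labels decides between the readings. If the letters hold, the group called NIA below would be the modified formula, and the groups called UW and mNIA would be unmodified NIA and UW, which were not matched for sucrose and fat. The groups are named below by their titles throughout.

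Sucrose is split in the gut into glucose and fructose, and ketohexokinase (the product of Khk) phosphorylates fructose on its entry into metabolism. Carbohydrate intake raises insulin, which acts through its receptor, the insulin receptor substrates and the FoxO transcription factors, while the sugar-responsive factor ChREBP and the insulin-responsive factor SREBP-1c drive genes of fatty acid synthesis, chiefly in liver and fat. The heart burns mostly fatty acids, and in cardiac muscle the malonyl-CoA made by the acetyl-CoA carboxylases (Acaca and Acacb) restrains fatty acid entry into mitochondria.

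Library totals ran from 4880235 to 6583532 counts in UW hearts, from 3870480 to 6544172 in mNIA hearts and from 2278250 to 63005490 in NIA hearts, the lowest being NIA replicate 4 and the highest NIA replicate 2. Transcripts that hold a run of at least 25 A or T bases took 6.49% to 8.32% of the counts in UW hearts, 6.10% to 14.2% in mNIA hearts, and 24.1%, 9.28%, 11.8% and 26.6% in NIA replicates 1 to 4. A model that weights libraries by how well they fit gave low weights to NIA replicate 4 (0.160), chow replicate 3 (0.234), NIA replicate 1 (0.301) and mNIA replicate 2 (0.360), while the other 12 libraries had weights from 0.580 to 2.89. NIA replicates 1 and 4 thus stand apart among the 4 libraries on one side of the comparison. Many results, but not all, are given with and without such libraries. An estimate given only with all libraries may also move without them. The tissue label fitted the ventricular markers: Myl2, the ventricular myosin light chain, lay between 7700 and 34370 CPM (counts scaled to library size) in the UW, mNIA and NIA libraries. The atrial light chain Myl4 lay between 0.204 and 4.27 CPM in the same libraries. Of 2 other atrial markers, Myl7 was at 0 in 5 of the 16 libraries and was not tested, and Sln was absent from the counts. The wider atrial list, with 7 members tested, was not near 0. Its summed level ran from 129.2 to 221.5 CPM in UW hearts, 131.6 to 253.4 in mNIA hearts and 129.7 to 325.9 in NIA hearts.

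No gene passed the test for a difference on both formulas. The joint test took the larger p of UW minus NIA and mNIA minus NIA where both had 1 sign (edgeR quasi-likelihood test, Benjamini-Hochberg adjustment). Of 13381 genes tested, 0 (0.0%) had an adjusted p under 0.05 in it, and the smallest adjusted p was 0.725. At an unadjusted p under 0.05 the joint test held 310 genes higher (2.32%) and 597 lower (4.46%) in the UW and mNIA hearts. The mean of UW and mNIA minus NIA also called 0 genes, with a smallest adjusted p of 0.0924, as did UW minus NIA (0.139) and mNIA minus NIA (0.549). At an unadjusted p under 0.05 these single contrasts held 2048, 1858 and 1192 genes, where 669 would be reached by a uniform p alone. By DESeq2 the joint test also called 0 genes, with 1139 at an unadjusted p under 0.05. Its single contrasts called 538 genes for the mean (103 higher and 435 lower), 375 for UW minus NIA and 3 for mNIA minus NIA. Because both contrasts subtract the same 4 NIA libraries, a common direction is partly built in: 5444 of the tested genes (40.7%) had a higher and 5610 (41.9%) a lower estimate on both formulas.

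The genes in which the 2 formulas part from NIA most cleanly were therefore described by their separation in the single hearts. In 111 genes (0.830%) all 8 UW and mNIA libraries lay above all 4 NIA libraries, and in 46 genes (0.344%) all 8 lay below, together 157 genes or 1.17%. That count depends on single libraries: it was 572 without NIA replicate 1, 504 without mNIA replicate 2, 416 without NIA replicate 2 and 342 without NIA replicate 3. It was 165 to 209 without any other one. Each of these fits left out 1 library, and fewer libraries separate more easily by construction. Why the count differed between the libraries left out was not tested. Over the 111 genes the median log2 fold change of the mean of UW and mNIA over NIA was 0.59 (0.26 to 1.81), and over the 46 genes it was -0.68, with sizes from 0.39 to 1.42. The estimate was larger in size for UW than for mNIA in 69 of the 111 and in 29 of the 46. The lowest NIA library was replicate 4 in 95 of the 111 genes and the highest NIA library was replicate 4 in 29 of the 46.

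**Figure D1:**
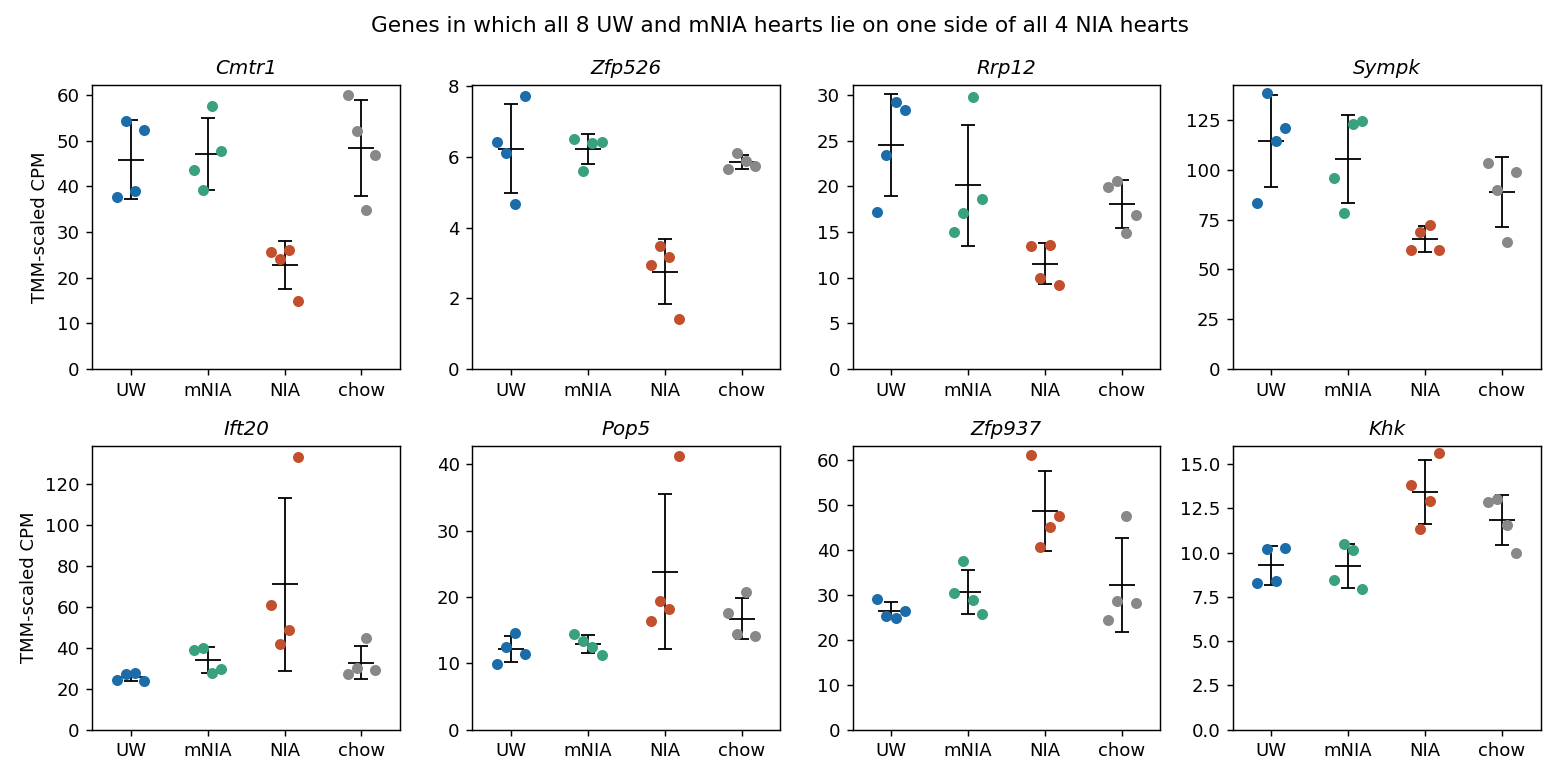
TMM-scaled CPM (y axis, from 0) in each UW, mNIA, NIA and chow heart for 4 genes higher and 4 genes lower in all 8 UW and mNIA hearts than in all 4 NIA hearts; points are animals, black lines the mean and SD (n = 4). In Cmtr1 the UW and mNIA hearts lie between 37.7 and 57.6 CPM, above all NIA hearts, and in Ift20, Pop5 and Cmtr1 the most distant NIA point is replicate 4.

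The 12 leading genes on each side were those with the smallest joint p among genes with no overlap, and all 24 had an adjusted p of 0.725 in the joint test (edgeR). On the higher side 3 of them act on RNA. Cmtr1, which methylates the first nucleotide of the messenger RNA cap and lies on chromosome 17 at 29660595 to 29705979 of mm10, had 37.7, 54.2, 38.9 and 52.4 CPM in UW hearts and 43.5, 39.2, 57.6 and 47.6 CPM in mNIA hearts. NIA hearts had 25.6, 24.1, 26.1 and 14.9 CPM. Every UW and mNIA heart exceeded every NIA heart, and the log2 fold change of their mean over NIA was 1.01 ± 0.20 (SE), with an adjusted p of 0.0924 in edgeR for that mean and 0.725 for both formulas jointly. Rrp12, a factor in ribosomal RNA processing and ribosome export, had 17.2, 23.4, 29.2 and 28.4 CPM in UW hearts and 14.96, 17.1, 29.8 and 18.6 CPM in mNIA hearts. NIA hearts had 13.4, 9.93, 13.6 and 9.25 CPM (0.94 ± 0.22 on the log2 scale). Sympk encodes symplekin, a scaffold of messenger RNA 3′-end processing, and had 83.6, 139, 114 and 121 CPM in UW hearts and 95.9, 78.5, 123 and 125 CPM in mNIA hearts. NIA hearts had 59.98, 68.9, 72.5 and 59.7 CPM (0.75 ± 0.19). Its NIA hearts lay close together, whereas for Cmtr1 the fourth NIA heart lay well below the other 3. L3mbtl2, a Polycomb-associated chromatin reader, averaged 13.6 ± 1.39 CPM in UW hearts, 14.3 ± 3.20 in mNIA hearts and 7.84 ± 1.99 in NIA hearts (SD, n = 4 each).

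The other leading genes on the higher side include enzymes of lipids and of signalling. Abhd2, a lipid hydrolase, had 11.1, 12.8, 9.54 and 10.98 CPM in UW hearts and 7.90, 6.83, 7.96 and 11.7 CPM in mNIA hearts. NIA hearts had 4.61, 4.57, 1.84 and 2.13 CPM (1.48 ± 0.34 on the log2 scale). Its transcripts hold an A or T run, and chow replicate 3, another library of low weight, lay at 2.36 CPM against 8.59 to 9.29 in the other chow hearts. Pnpla7, a lysophospholipase, ranged from 20.8 to 43.03 CPM over the 8 UW and mNIA hearts (median 27.4) and had 14.3, 17.8, 18.2 and 9.96 CPM in NIA hearts (0.84 ± 0.21). Pip4k2c, a phosphoinositide kinase, ranged from 39.2 to 57.8 CPM (median 49.01) in UW and mNIA hearts and had 32.7, 33.7, 33.8 and 23.5 CPM in NIA hearts. Rapgef5, an exchange factor for Rap GTPases, ranged from 14.4 to 27.2 CPM (median 20.4) in UW and mNIA hearts and had 13.8, 12.9, 10.7 and 4.27 CPM in NIA hearts. In each of these genes NIA replicate 4 was at or near the bottom, and the other NIA hearts still lay below all 8. Syne3, which encodes the nuclear envelope protein nesprin-3, ranged from 4.23 to 8.59 CPM (median 6.10) in UW and mNIA hearts and had 2.10, 3.91, 3.01 and 1.42 CPM in NIA hearts. Zfp526 and Thada were also among the leading genes on that side: Zfp526 ranged from 4.67 to 7.72 CPM in UW and mNIA hearts and from 1.42 to 3.47 CPM in NIA hearts, and Thada from 10.5 to 13.6 CPM in UW and mNIA hearts and from 4.98 to 8.39 CPM in NIA hearts.

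On the lower side the gene most closely tied to sucrose was Khk, the ketohexokinase that phosphorylates fructose. It had 8.31, 10.2, 8.37 and 10.2 CPM in UW hearts and 8.47, 10.5, 10.1 and 7.93 CPM in mNIA hearts. NIA hearts had 13.8, 11.3, 12.9 and 15.6 CPM. All 8 hearts on the matched formulas lay below all 4 NIA hearts, and the chow hearts, at 12.9, 13.01, 11.6 and 9.97 CPM, overlapped both. The log2 fold change was -0.50 ± 0.16 for the mean of both formulas, -0.50 for UW and -0.50 for mNIA, with an adjusted p of 0.725 for both jointly (edgeR). Over all 22 alternative settings the estimate stayed between -0.59 and -0.35. Those settings use the same libraries, in which Khk had no overlap, so its constant sign was largely fixed in advance. Khk lies on the plus strand of chromosome 5 at 30921559 to 30931248 of mm10, and the 250 bases before its RefSeq start are printed here because it is the leading gene that handles the sugar by which the formulas were matched.
Khk upstream window, chr5:30921309-30921558, plus strand, GRCm38.p6, RefSeq: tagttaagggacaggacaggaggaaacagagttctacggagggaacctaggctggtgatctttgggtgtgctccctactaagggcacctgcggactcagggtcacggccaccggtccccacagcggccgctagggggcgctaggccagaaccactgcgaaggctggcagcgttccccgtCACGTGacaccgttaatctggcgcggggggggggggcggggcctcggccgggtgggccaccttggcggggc
The capitals mark the single CACGTG, a palindromic E-box that begins 71 bases before the start; the window holds no CCAAT. Searched on both strands over the RefSeq windows of 250 bases before to 50 after each start, CACGTG was found for 1202 of 10470 tested genes with a window (11.5%), for 9 of 93 of the genes higher in all 8 hearts (9.68%) and for 4 of 37 of those lower (10.8%). CCAAT was found for 42.5% of all genes with a window, 45.2% of the higher and 40.5% of the lower, and a CACGTG and a CCAAT cannot share a base. Both sets thus carried these letters about as often as all genes.

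The other 11 leading genes on the lower side have varied roles. Ift20, a subunit of the intraflagellar transport complex, had 24.1, 27.3, 27.6 and 23.6 CPM in UW hearts and 38.9, 39.7, 27.5 and 29.6 CPM in mNIA hearts. NIA hearts had 60.8, 41.7, 48.4 and 133 CPM (-1.23 ± 0.25 on the log2 scale). NIA replicate 4 lay far above the other NIA hearts, the highest mNIA heart lay just below the closest NIA heart, and without NIA replicate 4 the estimate was -0.75; its transcripts hold an A or T run. Ift27, of the same transport machinery, had 6.70, 6.32, 6.23 and 5.20 CPM in UW hearts and 6.49, 6.83, 5.00 and 5.80 CPM in mNIA hearts. NIA hearts had 7.55, 8.68, 10.04 and 9.25 CPM (-0.56 ± 0.18), and here NIA replicate 4 lay among the other NIA hearts. Pop5, a subunit of the RNase P and RNase MRP ribonucleoproteins, had 9.91, 12.4, 14.6 and 11.4 CPM in UW hearts and 14.4, 13.4, 12.5 and 11.3 CPM in mNIA hearts. NIA hearts had 16.4, 19.4, 18.2 and 41.2 CPM (-0.87 ± 0.22, and -0.54 without NIA replicate 4). Kdelr2, the receptor that returns escaped proteins to the endoplasmic reticulum, ranged from 32.1 to 39.5 CPM (median 33.8) in UW and mNIA hearts and had 46.6, 40.7, 42.7 and 65.4 CPM in NIA hearts. Dmac1, an assembly factor of respiratory complex I, ranged from 18.9 to 24.7 CPM in UW and mNIA hearts and had 26.4, 26.3, 29.95 and 76.8 CPM in NIA hearts, and its estimate of -0.80 ± 0.23 was -0.31 without NIA replicate 4. Kbtbd3, Ccdc69 and Jtb shared that shape, with NIA replicate 4 at 63.3, 17.1 and 108.1 CPM against at most 21.0, 9.04 and 45.6 CPM in the other NIA hearts. Zfp937 had the highest value in NIA replicate 1 instead, with 29.1, 25.3, 24.9 and 26.4 CPM in UW hearts and 30.5, 37.5, 28.9 and 25.8 CPM in mNIA hearts. NIA hearts had 61.2, 40.6, 45.01 and 47.7 CPM (-0.77 ± 0.18); as a member of a large zinc-finger family it may share reads with near-identical copies. Tmem53 ranged from 7.62 to 10.2 CPM in UW and mNIA hearts and had 10.5, 12.8, 13.7 and 19.9 CPM in NIA hearts. The noncoding RNA Dleu2 ranged from 5.05 to 8.15 CPM and had 8.39, 9.51, 10.9 and 12.8 CPM in NIA hearts; it overlaps other genes, and whether the counting used strand is not given in the sources used here.

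The chow hearts are described beside these genes, with nothing read from the counts, because the genes were chosen with the NIA hearts at one end. In 95 of the 111 (85.6%) the chow mean was closer to the mean of the UW and mNIA hearts than to that of the NIA hearts, against 59.6% of all tested genes with a higher estimate. In 40 of the 111 (36.0%) all 4 chow hearts also exceeded all 4 NIA hearts, against 3.80% of those genes. All 8 UW and mNIA hearts exceeded all 4 chow hearts as well in 1 of them. Of the 46 lower genes, 28 (60.9%) had the chow mean closer to UW and mNIA, against 65.6% of all tested genes with a lower estimate, and 9 (19.6%) had all chow hearts below all NIA hearts, against 2.50%. In 3 of the 46 all 8 UW and mNIA hearts lay below all chow hearts. Gsta1, a glutathione S-transferase chosen after its values were seen, had the largest negative estimate among the 46 at -1.42 ± 0.31: 1.61, 1.63, 3.12 and 2.23 CPM in UW hearts, 1.69, 2.19, 2.81 and 1.98 CPM in mNIA hearts, 5.03, 3.76, 5.86 and 11.4 CPM in NIA hearts and 5.86, 4.01, 4.32 and 7.26 CPM in chow hearts. All 8 UW and mNIA hearts lay below all 8 NIA and chow hearts in that gene, which belongs to a family of near-identical copies, so its count is uncertain.

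Genes of fatty acid synthesis and desaturation had more higher than lower estimates on both formulas. Of 19 members tested, 12 had a higher and 5 a lower estimate on both, 0 passed the joint test, and the median log2 fold change was 0.28 beside -0.01 over all tested genes, and 0.16 without NIA replicate 1. Acaca, the cytosolic acetyl-CoA carboxylase that makes malonyl-CoA for fatty acid synthesis (chromosome 11, 84195438 to 84401651), was the only member with no overlap: 18.4, 26.1, 18.1 and 23.5 CPM in UW hearts and 20.6, 14.1, 19.98 and 19.99 CPM in mNIA hearts. NIA hearts had 10.5, 10.5, 12.9 and 0.711 CPM. NIA replicate 4 had the lowest value, the other 3 NIA hearts lay below the lowest UW or mNIA heart, and the estimate of 1.06 ± 0.28 was 0.84 without that library. Acacb, the mitochondrial carboxylase whose malonyl-CoA restrains fatty acid import, had 249.2, 409, 473 and 451 CPM in UW hearts and 370.2, 202, 449 and 465 CPM in mNIA hearts. NIA hearts had 271, 212, 258 and 134 CPM (0.81 ± 0.27). UW replicate 1 and mNIA replicate 2 lay within the NIA range and the other 6 lay above it. Acss2, which makes acetyl-CoA from acetate, averaged 37.5 ± 6.25 CPM in UW hearts, 37.2 ± 7.21 in mNIA hearts and 26.9 ± 5.19 in NIA hearts (SD, n = 4 each). Fasn, the fatty acid synthase, had 22.1, 38.1, 23.8 and 26.9 CPM in UW hearts and 19.8, 14.9, 24.4 and 23.3 CPM in mNIA hearts. NIA hearts had 16.8, 14.6, 21.9 and 9.25 CPM, with estimates of 0.78 ± 0.25 for UW and 0.36 ± 0.25 for mNIA. Every UW heart exceeded every NIA heart, while the mNIA hearts overlapped them. Srebf1, which encodes SREBP-1c, averaged 28.2 ± 4.33 CPM in UW hearts, 26.98 ± 5.73 in mNIA hearts and 19.7 ± 6.12 in NIA hearts, and the desaturase gene Scd1 had 0.05 ± 0.17 for UW and -0.19 ± 0.17 for mNIA, opposite in sign.

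**Figure D2:**
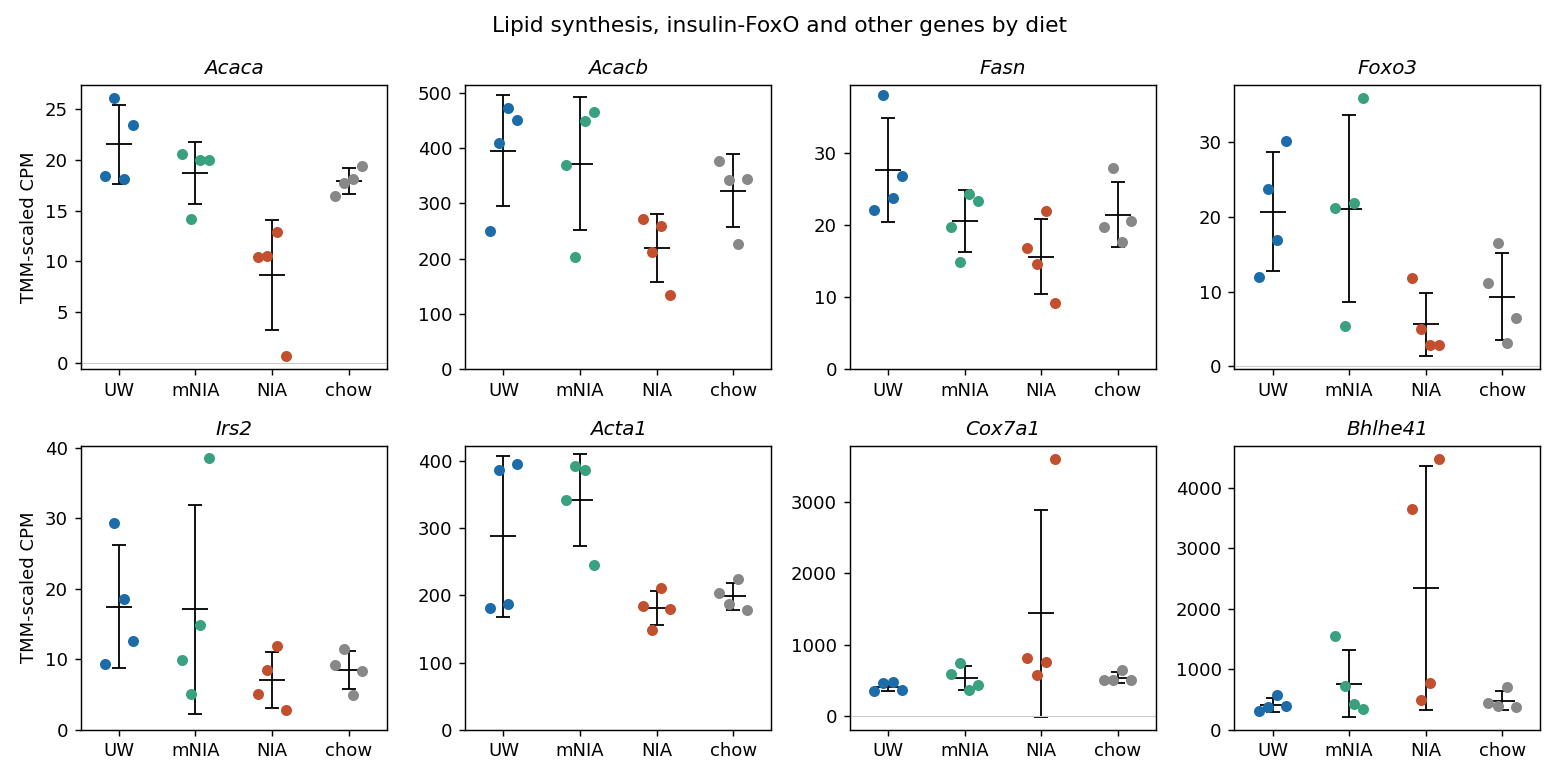
TMM-scaled CPM (y axis) in each UW, mNIA, NIA and chow heart for 8 genes named in the text; points are animals, black lines the mean and SD (n = 4). All UW and mNIA points for Acaca lie above the NIA points, whereas the means of Cox7a1 and Bhlhe41 in NIA hearts are set by 1 and 2 high hearts.

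The sugar and ChREBP list showed no common direction. Of its 13 tested members 4 had a higher and 5 a lower estimate on both formulas, Khk was the only one with no overlap, and the median was -0.01 (-0.15 to 0.06 without single libraries). Txnip, a ChREBP target that limits glucose uptake, had 485, 397, 643 and 456 CPM in UW hearts and 859.6, 601, 705 and 479.9 CPM in mNIA hearts. NIA hearts had 481, 489, 343 and 219.8 CPM, so that UW overlapped NIA and 1 mNIA heart did as well. Among 22 genes of glycolysis and glucose transport 14 had a higher and 5 a lower estimate on both (median 0.12, and 0.03 without NIA replicate 2). The exception without overlap was Pfkfb1, a kinase and phosphatase that sets the glycolytic activator fructose 2,6-bisphosphate: 18.2, 18.3, 25.9 and 23.9 CPM in UW hearts and 20.04, 18.3, 22.6 and 25.8 CPM in mNIA hearts. NIA hearts had 26.004, 30.4, 25.9 and 36.98 CPM (-0.45 ± 0.16). The highest UW heart and the lowest NIA heart were almost level there. Hk1, a hexokinase, ranged from 112 to 259 CPM (median 189) in UW and mNIA hearts and had 204, 95.8, 107 and 79.7 CPM in NIA hearts, NIA replicate 1 lying among the higher values. Of 16 genes of glycogen metabolism 13 had a higher and 2 a lower estimate on both, with a median of 0.25, and 0 separated without overlap. The glycogen median was 0.46 without NIA replicate 1 and 0.11 without NIA replicate 2 or NIA replicate 3. Pygb, the brain isoform of glycogen phosphorylase, had 527, 864, 931 and 927 CPM in UW hearts and 918, 379.8, 1017 and 1068 CPM in mNIA hearts. NIA hearts had 764, 469, 382 and 379 CPM (0.73 ± 0.37).

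Insulin signalling and FoxO genes had the most one-sided counts among the metabolic lists with higher values. Of 19 members 17 had a higher estimate on both formulas and 1 a lower one, against 40.7% and 41.9% of all tested genes, and the median was 0.43. Foxo3, a forkhead transcription factor restrained by insulin, had 11.9, 23.6, 16.9 and 30.1 CPM in UW hearts and 21.2, 5.36, 21.9 and 35.9 CPM in mNIA hearts. NIA hearts had 11.7, 5.01, 2.85 and 2.85 CPM. Every UW heart exceeded every NIA heart, mNIA replicate 2 lay within the NIA range, and the estimate was 1.96 ± 0.51 with adjusted p-values of 0.107 for the mean and 0.725 for both formulas (edgeR). Irs2, an insulin receptor substrate, had 9.38, 29.3, 18.5 and 12.6 CPM in UW hearts and 9.88, 5.12, 14.8 and 38.5 CPM in mNIA hearts. NIA hearts had 5.03, 8.41, 11.9 and 2.85 CPM, which overlapped. Igf1r, the receptor of insulin-like growth factor 1, separated without overlap at 47.4, 42.2, 48.7 and 46.9 CPM in UW hearts and 42.6, 41.7, 43.9 and 45.5 CPM in mNIA hearts. NIA hearts had 28.5, 40.5, 40.8 and 18.5 CPM. Its gap to NIA replicates 2 and 3 was small, and the estimate of 0.44 ± 0.18 was 0.29 without NIA replicate 4. The level of the list, taken as the median of its members' log2 CPM after centring each gene on the 12 libraries, was -0.21, 0.38, 0.18 and 0.26 in UW hearts, 0.21, -0.29, 0.29 and 0.25 in mNIA hearts, and 0.10, -0.28, -0.38 and -0.55 in NIA hearts. UW replicate 1 and mNIA replicate 2 lay within the range of the NIA hearts.

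Fatty acid oxidation genes and LXR targets had list medians whose sign changed with the libraries used, and the cholesterol genes had a small median. Of 24 oxidation genes 10 had a higher and 10 a lower estimate on both formulas, with a median of -0.02. That median was 0.16 without NIA replicate 4, 0.35 without NIA replicates 1 and 4, and 0.41 without the 4 libraries of low weight. Pdk4, the kinase that shuts pyruvate dehydrogenase in fasting, had 357, 231, 2441 and 675 CPM in UW hearts and 947, 224, 663 and 421 CPM in mNIA hearts. NIA hearts had 1156, 308, 185 and 529.9 CPM, a spread within each diet that exceeds the difference between them. Of 20 genes of cholesterol synthesis and uptake 9 were higher and 5 lower on both (median 0.04), and of 11 LXR targets 4 and 4 (median 0.06). Leaving out 1 library at a time gave 0.00 to 0.08 for the cholesterol genes and -0.15 to 0.17 for the LXR targets. Abca1, the cholesterol efflux transporter, averaged 61.5 ± 6.47 CPM in UW hearts, 46.4 ± 8.34 in mNIA hearts, 42.5 ± 11.7 in NIA hearts and 31.5 ± 3.98 in chow hearts (SD, n = 4 each), with 0.52 ± 0.20 for UW and 0.12 ± 0.20 for mNIA against NIA.

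Genes of the respiratory chain and the ribosome had the lowest medians on both formulas, and much of that went with 1 NIA library. Of 53 nuclear genes of oxidative phosphorylation 46 had a lower and 4 a higher estimate on both, and the median was -0.88. In the joint test 28 of them had an unadjusted p under 0.05, against 6.78% of all genes, and 0 passed after adjustment. Cox7a1, the muscle isoform of a cytochrome c oxidase subunit, had 344, 462, 475 and 369.8 CPM in UW hearts and 585, 748, 368 and 432 CPM in mNIA hearts. NIA hearts had 809, 579, 761 and 3613 CPM. The first 3 NIA hearts overlapped the mNIA hearts and the fourth lay several times above all others, so that the estimate of -1.62 ± 0.37 was -0.60 without it. Of 58 cytosolic ribosomal protein genes 57 were lower and 1 higher on both, with a median of -0.81. Rpl35, of the large ribosomal subunit, had 220.4, 221, 232 and 166 CPM in UW hearts and 286, 332, 186 and 159 CPM in mNIA hearts. NIA hearts had 351, 255, 328 and 1479 CPM (-1.42 ± 0.37, and -0.46 without NIA replicate 4); such genes have processed pseudogenes that can share reads. Without NIA replicate 4 the list medians were -0.31 for oxidative phosphorylation and -0.27 for cytosolic ribosomal proteins, nearer to 0 and still below it. In neither list was any gene free of overlap between the groups. Mitochondrial ribosomal proteins (34 of 37 lower on both, median -0.49), proteasome subunits (22 of 31, -0.32) and NRF2 and antioxidant genes (22 of 30, -0.26) had medians of -0.13, -0.04 and -0.08 without that library. Txn1, cytosolic thioredoxin, had 58.96, 61.3, 51.01 and 47.6 CPM in UW hearts and 51.6, 62.2, 54.3 and 52.6 CPM in mNIA hearts. NIA hearts had 59.98, 73.2, 73.96 and 173 CPM.

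**Figure D3:**
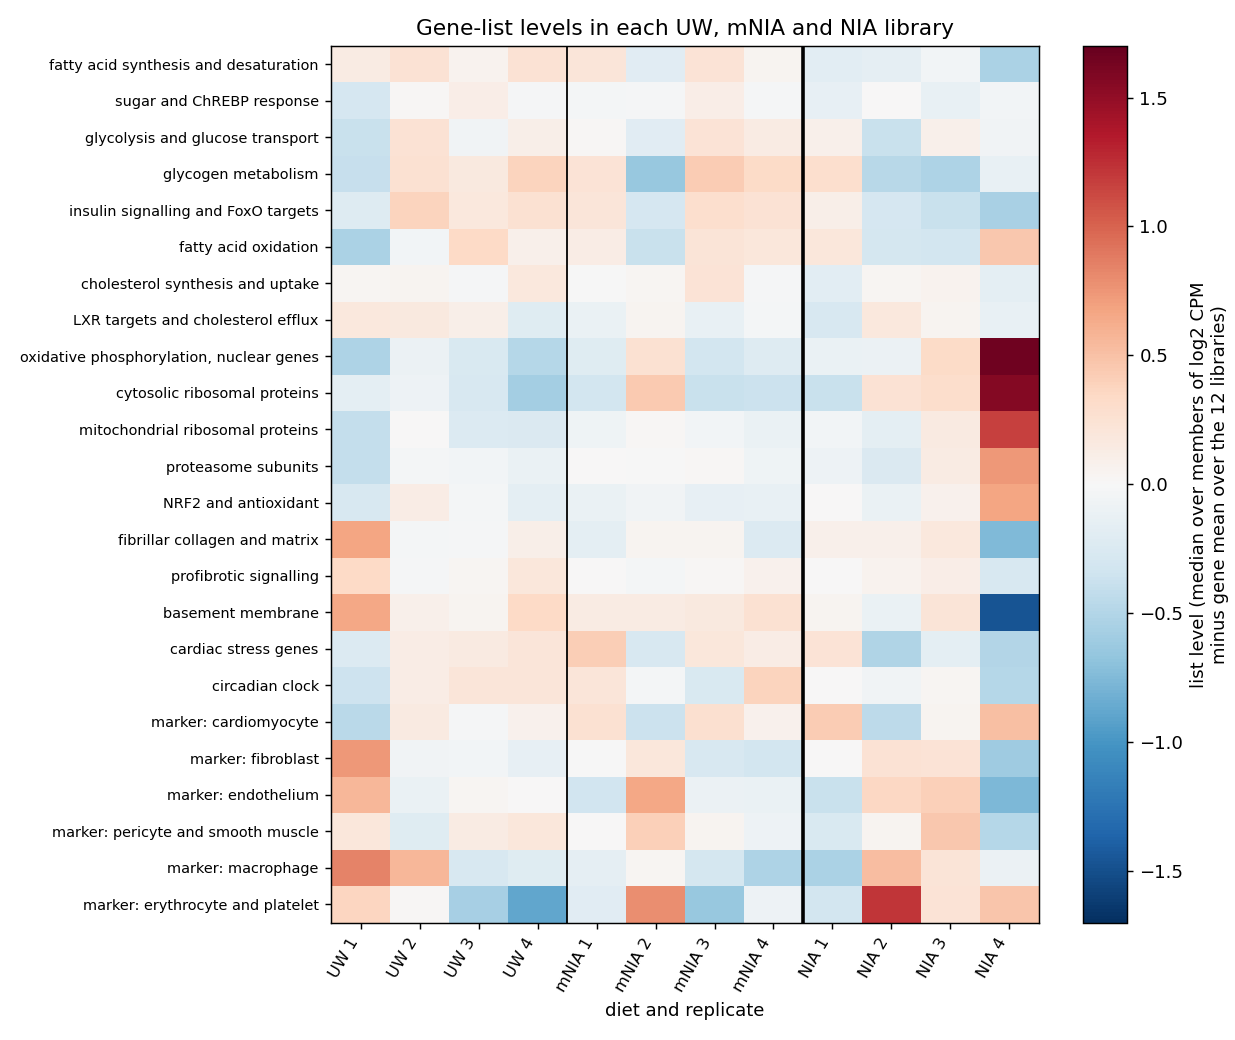
Level of 24 gene lists (rows) in the 12 UW, mNIA and NIA libraries (columns), each the median of the members' log2 CPM after centring every gene on these libraries; red is higher and blue lower. NIA replicate 4 has the highest level of oxidative phosphorylation (1.65) and cytosolic ribosomal proteins (1.56) and the lowest of basement membrane (-1.47).

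Among matrix lists the basement membrane had mostly higher estimates on both formulas, and fibrillar collagen had medians of opposite sign on the 2 formulas. Of 17 basement membrane genes 14 had a higher and 1 a lower estimate on both, with a median of 0.43, and 0.25 without NIA replicate 4, in which the list level was -1.47 against -0.11 to 0.22 in the other NIA hearts. Lamb2, the laminin β2 chain, separated without overlap at 294, 347, 302 and 326 CPM in UW hearts and 328, 293, 362 and 351 CPM in mNIA hearts. NIA hearts had 264, 264, 292 and 142 CPM. The lowest UW and mNIA hearts and the highest NIA heart were almost level. Lama2, the laminin α2 chain of muscle, averaged 132 ± 20.9 CPM in UW hearts, 134 ± 30.7 in mNIA hearts and 93.6 ± 29.4 in NIA hearts, and perlecan (Hspg2) had an estimate of 0.56 ± 0.36 that was 0.25 without NIA replicate 4 and 0.93 without NIA replicate 3. Fibrillar collagen and matrix genes numbered 9 higher and 6 lower on both of 23, with a median of 0.10 that was -0.08 without NIA replicate 4. By formula the median was 0.26 for UW and -0.09 for mNIA. The list level was 0.67 in UW replicate 1 against -0.04 to 0.10 in the other UW hearts. Col1a1, the α1 chain of type I collagen, had 198, 117, 98.7 and 113 CPM in UW hearts and 116, 119, 108 and 85.4 CPM in mNIA hearts. NIA hearts had 150.2, 118, 132 and 41.2 CPM, and its estimate of 0.10 ± 0.27 turned to -0.16 without NIA replicate 4 and to -0.04 without UW replicate 1. Col3a1 had 457, 222, 202 and 245 CPM in UW hearts and 242, 207, 253 and 191 CPM in mNIA hearts. NIA hearts had 254, 227, 240.0 and 150.1 CPM, UW replicate 1 alone standing above the NIA range. Of 20 profibrotic signalling genes 11 were higher and 4 lower on both, with a median of 0.19 that was 0.06 without NIA replicate 4 and 0.03 without the 4 libraries of low weight. Cyr61, a matricellular target of YAP and TGF-β signalling, ran the other way without overlap: 57.2, 57.7, 49.3 and 51.4 CPM in UW hearts and 45.2, 54.1, 57.1 and 42.6 CPM in mNIA hearts. NIA hearts had 73.8, 60.5, 71.3 and 65.4 CPM (-0.39 ± 0.17). Ace, the angiotensin-converting enzyme made by endothelium and named here after its values were seen, had 121, 69.9, 61.3 and 82.2 CPM in UW hearts and 73.7, 66.5, 62.8 and 78.9 CPM in mNIA hearts. NIA hearts had 50.3, 59.5, 58.7 and 18.5 CPM (0.68 ± 0.25, and 0.46 without NIA replicate 4).

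Cardiac stress and clock genes gave a mixed account. Of 13 stress genes 9 had a higher and 4 a lower estimate on both formulas, with a median of 0.36 that ran from 0.18 without NIA replicate 2 to 0.55 without NIA replicate 1 and was 0.23 without NIA replicate 4. Acta1, the skeletal α-actin re-expressed in stressed myocardium, had 181, 387, 187 and 396 CPM in UW hearts and 342, 392, 387 and 245 CPM in mNIA hearts. NIA hearts had 184, 149, 212 and 179 CPM (0.79 ± 0.24). All mNIA hearts exceeded all NIA hearts, whereas UW replicates 1 and 3 lay within the NIA range. The natriuretic peptide genes differed in sign: Nppa had 97.4, 161, 102 and 82.8 CPM in UW hearts and 114, 207, 112 and 119 CPM in mNIA hearts. NIA hearts had 62.9, 69.8, 133 and 108 CPM (0.41 ± 0.29). The Nppa estimate was 0.21 without NIA replicate 1, 0.23 without mNIA replicate 2 and 0.64 without NIA replicate 3. Nppb had 225, 127, 175 and 114 CPM in UW hearts and 161, 149.9, 139 and 54.9 CPM in mNIA hearts. NIA hearts had 148, 145, 235 and 633 CPM, and its estimate of -1.02 ± 0.35 was -0.30 without NIA replicate 4. Myh7, the slow myosin heavy chain, had 2195, 3643, 4112 and 3219 CPM in UW hearts and 4935, 2505, 3463 and 4067 CPM in mNIA hearts. NIA hearts had 5224, 1636, 3864 and 988 CPM, and the estimate was 0.26 ± 0.35, turning to -0.02 without NIA replicate 4 and reaching 0.67 without NIA replicate 1. Of 20 clock genes 13 were higher and 4 lower on both (median 0.16). Bhlhe41, a repressor of the clock, had 309.7, 369, 577 and 391 CPM in UW hearts and 1547, 727, 426 and 347 CPM in mNIA hearts. NIA hearts had 3639.7, 483, 768 and 4481 CPM, the high hearts being mNIA replicate 1 and NIA replicates 1 and 4. The estimate of -2.06 ± 0.48 was -0.14 without the 4 libraries of low weight. Those 3 hearts are also the ones with the 3 largest shares of counts on transcripts with an A or T run, whose part in the result was not tested. Sesn2, a stress-induced sestrin, was low throughout and separated without overlap, at 3.35, 2.24, 3.12 and 2.82 CPM in UW hearts and 1.69, 1.71, 2.65 and 2.14 CPM in mNIA hearts. NIA hearts had 0.839, 1.56, 1.67 and 0.711 CPM. The lowest mNIA heart (1.69 CPM) and the highest NIA heart (1.67 CPM) were almost level.

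In bulk tissue, fewer cells of a type and less RNA per cell cannot be told apart, so cell type markers are given beside these results. All 14 cardiomyocyte markers were tested, and their summed level ran from 64580 to 98740 CPM in UW hearts, 78790 to 121300 CPM in mNIA hearts and 62450 to 143300 CPM in NIA hearts. The summed endothelial markers (18 of 18 tested) ran from 4896 to 6505 CPM in UW hearts, 5029 to 6841 CPM in mNIA hearts and 5547 to 6813 CPM in NIA hearts, and those of fibroblasts (14 of 14) from 2052 to 3255, 1929 to 2532 and 1844 to 2477 CPM in UW, mNIA and NIA hearts. These ranges overlapped between the diets, and none of the defining markers Myh6, Tnnt2, Pdgfra, Dcn, Pecam1, Cdh5, Csf1r and Hbb-bs was at 0 in any library. Such sums follow the most abundant markers, and the list levels set NIA replicate 4 apart. The endothelial level was -0.77 there against -0.38 to 0.41 in the other NIA hearts. The fibroblast level was -0.61 against 0.01 to 0.24, and the cardiomyocyte level 0.51 against -0.44 to 0.44. Cdh5 ran from 95.3 to 353.4 CPM in NIA hearts, 296.0 to 515.6 in UW hearts and 281.8 to 410.2 in mNIA hearts. Macrophage markers (17 of 17 tested) had a median log2 fold change of -0.14 for the mean of both formulas. The median was 0.14 for UW and -0.44 for mNIA, opposite in sign, and 3 markers were higher and 4 lower on both. Pericyte and smooth muscle markers (15 of 15) had a median of 0.13. The macrophage median was 0.09 without NIA replicate 2 and -0.31 without NIA replicate 1. The pericyte and smooth muscle median was 0.03 without NIA replicate 4, -0.02 without NIA replicate 1, 0.39 without NIA replicate 3 and -0.15 without the 4 libraries of low weight. Erythrocyte and platelet markers had the lowest median of the marker lists: 11 of 14 tested had a lower estimate on both formulas, and the median was -0.62, and -0.66 without NIA replicate 4 and -0.38 without NIA replicate 2. Their summed level ran from 1375 to 3582 CPM in UW hearts, 1765 to 4737 CPM in mNIA hearts and 2189 to 7522 CPM in NIA hearts. Hbb-bs, a β-globin gene with near-identical copies, had 540.3, 355, 212 and 178 CPM in UW hearts and 347, 763, 238 and 366 CPM in mNIA hearts. NIA hearts had 362, 1317, 581 and 1476 CPM. Bpgm, the red-cell enzyme that makes 2,3-bisphosphoglycerate, separated without overlap at 47.8, 49.9, 32.3 and 31.02 CPM in UW hearts and 53.6, 53.6, 37.6 and 47.3 CPM in mNIA hearts. NIA hearts had 59.98, 73.4, 57.1 and 59.03 CPM (-0.51 ± 0.17), and the part of the blood content of the samples in this result was not tested. The adipocyte marker Adipoq was at 0 in 10 of the 16 libraries and was not tested.

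**Figure D4:**
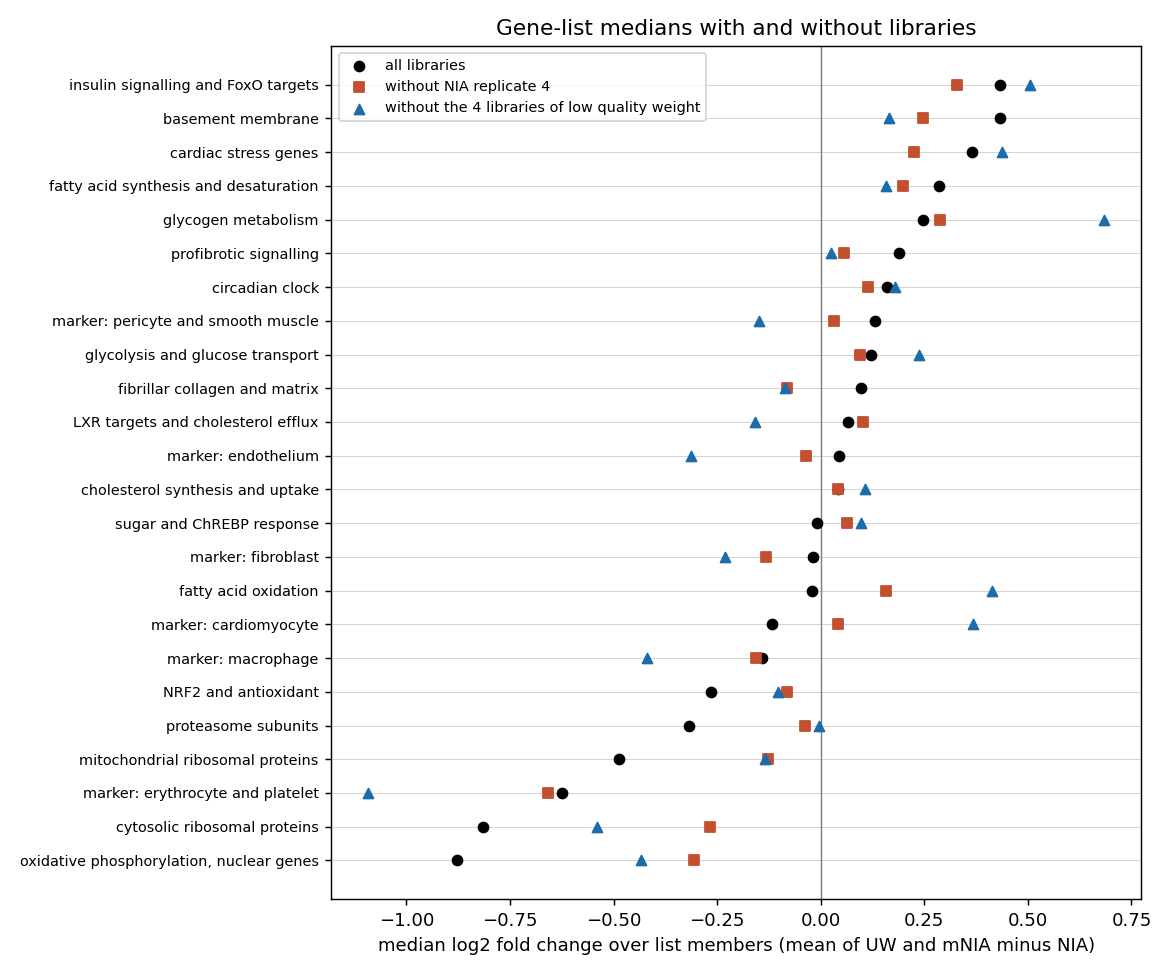
Median log2 fold change of the mean of UW and mNIA over NIA (x axis) for 24 gene lists with all libraries (circles), without NIA replicate 4 (squares) and without the 4 low-weight libraries (triangles). The oxidative phosphorylation median is -0.88, -0.31 and -0.43 in turn, and the insulin and FoxO median is 0.43, 0.33 and 0.51.

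Leaving out the 4 libraries of low weight (NIA replicates 1 and 4, mNIA replicate 2 and chow replicate 3) made the count of calls much larger. With 7 UW and mNIA libraries against NIA replicates 2 and 3, the joint test called 808 genes higher (5.86% of 13781) and 274 lower (1.99%) at an adjusted p under 0.05 in edgeR. These are the libraries farthest from the model, so that the spread is narrower by construction, and the NIA side then rests on 2 hearts. Many of the 57 genes followed through the alternatives were chosen by joint p or separation in these same libraries. Calls among them are therefore no separate support. Of these 57 genes 15 were among the calls. They include Cmtr1 (adjusted p = 0.0117), Foxo3 (0.0166), Acaca (0.0189), Zfp937 (0.0247) and Acacb (0.0336), whereas Khk (0.287), Gsta1 (0.0842) and Ift20 (0.0663) were not. Over the lists, 8 of 23 genes of the citric acid cycle and pyruvate oxidation, 7 of the 19 insulin and FoxO genes, 6 of 23 genes of calcium cycling and ion channels, 5 of 16 glycogen genes, 3 of 19 fatty acid synthesis genes and 1 of 24 oxidation genes were called higher, and 19 of 58 cytosolic ribosomal protein and 10 of 53 oxidative phosphorylation genes were called lower. The glycogen median was 0.68 and the erythrocyte median -1.09. Among the genes with the smallest p, chosen after their values were seen, were Lrch4 (log2 fold change 2.49, adjusted p = 0.000121), Dsp (1.67, 0.00745), which encodes the desmosomal protein desmoplakin, Cmya5 (1.78, 0.00760), which encodes the muscle protein myospryn, and Prkar2a (1.40, 0.00760), a regulatory subunit of protein kinase A. Leaving out NIA replicates 1 and 4 alone, or NIA replicate 4 alone, gave 0 joint calls (edgeR), with 755 and 233 genes at an unadjusted p under 0.05. A model that weights libraries instead of dropping them (limma-voom) called 8 genes jointly, 7 higher and 1 lower, with Foxo3 among them (2.25, adjusted p = 0.0406).

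UW and mNIA were also set against each other. Of the 13381 genes 0 were called (0.0%), with a smallest adjusted p of 0.925 and 132 genes at an unadjusted p under 0.05 (edgeR quasi-likelihood test), and 1 each by DESeq2 and limma-voom. For Khk the log2 difference of UW minus mNIA was 0.00 (95% interval -0.40 to 0.40), and for Cmtr1 it was -0.04 (-0.49 to 0.41). For Acaca the interval ran from -0.43 to 0.83, for Fasn from -0.09 to 0.93, for Abca1 from -0.02 to 0.83 and for Foxo3 from -1.08 to 0.99. These intervals leave room for differences about as large as several of the differences from NIA, so they do not show that both formulas act alike.

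The genes that separated without overlap differed from all tested genes in transcript length. The median length of the longest annotated transcript was 4865 bases for 110 of the higher genes, 2061 bases for 45 of the lower genes and 3424 bases for 13260 tested genes with a length. Transcripts over 4 kb made up 67.3% of the higher, 15.6% of the lower and 38.9% of all tested genes. The median log2 fold change over all tested genes was -0.23 in the tertile of genes with the shortest transcripts, 0.01 in the middle tertile and 0.18 in the tertile with the longest. Spearman's coefficient across genes between transcript length and the log2 CPM of a library, less each gene's median over the 16 libraries, was -0.01 to 0.45 in UW hearts, -0.23 to 0.31 in mNIA hearts and 0.12, -0.24, -0.25 and -0.47 in NIA hearts, where genes are not independent replicates. In this measure 3 of the 4 NIA hearts had relatively lower counts from long transcripts, a shift that moves with the groups compared and whose part in the results was not tested. The GC content was 53.3% for the higher, 47.5% for the lower and 49.5% for all genes (medians), and an A or T run was present in 3.64%, 11.1% and 3.08%.

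**Figure D5:**
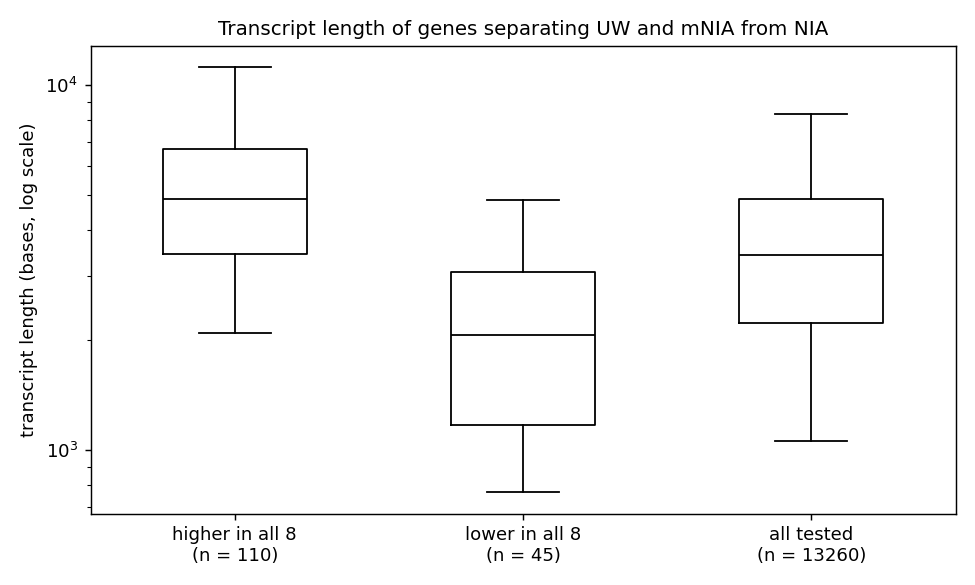
Length of the longest annotated transcript (y axis, bases, log scale) of genes higher in all 8 UW and mNIA hearts than in all 4 NIA hearts, genes lower in all 8, and all tested genes; boxes span the quartiles, lines mark medians and whiskers the 5th and 95th percentiles. The medians are 4865, 2061 and 3424 bases.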

How the data were processed

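Poly-A, strand-specific, single-end RNA sequencing of 16 ventricles gave expected counts per gene, which the authors deposited unscaled for 17737 genes. BWA, DESeq2 and mm10 are named in the submitters' processing notes without versions or roles, and the counting tool is not given in the sources used here. Counts were rounded. Genes were kept by filterByExpr (13381), scaled by TMM and fitted with edgeR 4.0.16 (R 4.3.3) with 1 mean per diet over all 16 libraries and a quasi-likelihood test, 2-sided, Benjamini-Hochberg adjusted at 0.05. The joint test took the larger p of UW minus NIA and mNIA minus NIA where both had 1 sign. The biological coefficient of variation was 0.278 overall. DESeq2 1.42.0 and limma 3.58.1 (voom with quality weights) were alternatives. A or T runs, GC content and lengths came from GENCODE vM21 (17460 genes matched). Named genes were the 12 per direction with the smallest joint p among genes with no overlap, a mean of at least 5 CPM and a symbol that is no clone name, up to 4 per list and fixed genes. The members and lists were chosen with earlier results of these data known. A gene that the rule names is not reported here. Each library is 1 animal. The main fit treated the libraries as unpaired, and whether replicate numbers pair them was not tested.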

Additional observations from a re-analysis of the deposited data

Results flagged for a closer look

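In groups of 4 hearts, a heart was singled out where its gap to the nearest other heart exceeded the Dixon 95% limit for the range of the group. Of 228 gene and diet groups examined, 23 (10.1%) held such a heart, where chance alone would single out about 5%, and 9 of these 23 lay in NIA replicate 4. A further 8 levels of gene lists and 2 library measures were singled out.

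In NIA replicate 4, Kbtbd3 stood at 63.3 CPM against 19.75 to 20.97 CPM in the other NIA hearts, Pop5 at 41.2 CPM against 16.4 to 19.4, Dmac1 at 76.8 CPM against 26.3 to 29.95, Ccdc69 at 17.1 CPM against 8.81 to 9.04, and Jtb at 108.1 CPM against 41.5 to 45.6. Cox7a1 stood there at 3613 CPM against 579 to 809, Rpl35 at 1479 CPM against 255 to 351 and Txn1 at 172.8 CPM against 59.98 to 73.96. Pip4k2c was the one named gene singled out for a low value in that heart, 23.5 CPM against 32.7 to 33.8. The fibrillar collagen level there was -0.75 against 0.08 to 0.18. Low values short of the limit were common, NIA replicate 4 being the lowest NIA library in 95 of the 111 genes higher in all 8 hearts. NIA replicate 2 had a total of 63005490 counts, more than 10 times that of any other NIA library.

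Among UW hearts, replicate 1 had 456.8 CPM of Col3a1 against 202 to 245, 526.7 CPM of Pygb against 864 to 931, a fibroblast marker level of 0.74 against -0.14 to -0.04 and a clock level of -0.36 against 0.12 to 0.20. UW replicate 2 had 34.6 CPM of Srebf1 against 25.5 to 26.5 and a pericyte and smooth muscle marker level of -0.21 against 0.13 to 0.20.

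Among mNIA hearts, replicate 2 had 5.61 CPM of Zfp526 against 6.40 to 6.49, 14.1 CPM of Acaca against 19.98 to 20.6 and 207.4 CPM of Nppa against 112 to 119. Its levels were -0.29 for insulin and FoxO genes, -0.38 for fatty acid oxidation and 0.44 for cytosolic ribosomal proteins, outside the other mNIA hearts in each case. mNIA replicate 3 had a sugar and ChREBP level of 0.12 against -0.04 to -0.02.

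Among chow hearts, replicate 3 had 2.36 CPM of Abhd2, 3.73 CPM of Syne3, 44.6 CPM of Ift20, 78.7 CPM of Hk1, 648 CPM of Cox7a1 and 206.1 CPM of Pygb, and 12.9% of its counts lay on genes holding an A or T run against 6.61% to 7.23%. Chow replicate 1 had 13.9 CPM of Kbtbd3, and chow replicate 2 had 29.4 CPM of Srebf1.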

How the results depend on the processing

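The joint test called 0 genes with RLE size factors, without a low-count filter, over 1 CPM in at least 4 libraries, with DESeq2, without chow, without NIA replicates 1 and 4 and without genes holding an A or T run, 8 with limma-voom with quality weights, and 1082 without the 4 libraries of low weight. The mean of UW and mNIA minus NIA called 538 genes with DESeq2, 3218 with limma-voom and 3292 without those 4 libraries. UW minus NIA called 375, 916 and 1627 genes under the same settings in turn, mNIA minus NIA 3, 1979 and 3184, and UW minus mNIA 1, 1 and 0. Genes with no overlap numbered 1197 without NIA replicates 1 and 4 and 3580 without the 4 libraries, where fewer libraries make separation easier by construction.

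Leaving out 1 library at a time, the joint test and mNIA minus NIA called 0 to 0 genes, the mean 0 to 308, UW minus NIA 0 to 217, UW minus mNIA 0 to 1, and genes with no overlap numbered 165 to 572. The mean called 308 genes without NIA replicate 2, 167 without NIA replicate 3 and 86 without mNIA replicate 1, and UW minus NIA called 217 without NIA replicate 2 and 1 without UW replicate 3, while UW minus mNIA called 1 without UW replicate 3. Genes with no overlap numbered 504 without mNIA replicate 2, and 572, 416 and 342 without NIA replicates 1, 2 and 3.

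Of 1251 estimates for the 57 named genes over 22 settings, 1228 kept their direction and their side of the threshold, 16 passed it only there and 7 changed sign, in 3 genes. No named gene passed the threshold in the main fit, and many were chosen for having no overlap in these libraries. The count that kept both was therefore largely fixed in advance and does not measure stability. Col1a1 (0.10) had -0.12 with limma-voom, -0.057 without NIA replicates 1 and 4, -0.088 without the 4 libraries, -0.04 without UW replicate 1 and -0.156 without NIA replicate 4, the range without single libraries being -0.156 to 0.245. Myh7 (0.26) had -0.021 without NIA replicate 4 and up to 0.668 without NIA replicate 1. Pdk4 (0.41) had -0.157 without UW replicate 3 and up to 1.005 without NIA replicate 1. The cause of these changes was not tested. Of 528 list medians 515 moved by less than the SD of the list's levels in the 4 NIA hearts. NIA replicate 4 widens that SD where it stands apart, so the count does not measure how far a median rests on it. For oxidative phosphorylation the NIA levels were -0.115, -0.098, 0.332 and 1.654. Its move from -0.88 to -0.31 without NIA replicate 4 counted as within the SD.

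The deviations of same-numbered libraries from their diet means had correlations from -0.34 to 0.49 over 12 pairs. The highest were those of mNIA and NIA, 0.49 for replicate 1 and 0.41 for replicate 2. Differently numbered libraries were not compared, so whether the numbers pair the libraries was not tested. With the replicate number as a block the joint test called 0 genes (edgeR), with 597 instead of 907 at an unadjusted p under 0.05, and the 4 other contrasts also called 0.

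Depth limits NIA replicate 4 most, at 2278250 counts, where 1 count is worth more of a CPM than in any other library.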
